A study of Mus musculus with 6 samples.

Results

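TGF-beta and BMP signalling was followed through 10 genes in mouse lymphatic endothelial cells, as the labels call these cultures: the ligands Tgfb1, Tgfb2 and Tgfb3, the receptors Tgfbr1, Tgfbr2 and Eng, the inhibitory SMADs Smad6 and Smad7, and the target genes Id1 and Id3. They were chosen by their role in the pathway, with earlier results of these data known, and were matched by symbol. All 10 are among the 15528 genes listed in the counts table, and 9 had enough counts to be tested. Poly(A) RNA was sequenced from 3 libraries of cells treated with red blood cells (RBC) and 3 libraries of control cells, both taken at 24 h. The labels name no strain, sex, passage, source vessel or red blood cell dose, and do not say whether the replicates were separate cultures, so each p-value reflects only how far these libraries vary, and that variation may be technical in origin. The study concerns crosstalk between the brain and the cervical lymph nodes after subarachnoid haemorrhage, and the comparison asks how the cells' transcripts differ when red blood cells are present.

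TGF-beta ligands are secreted in a latent form and, once released, bring together a type II receptor (Tgfbr2) and a type I receptor (Tgfbr1), which phosphorylates SMAD2 and SMAD3. BMPs act through related receptors that phosphorylate SMAD1 and SMAD5, with endoglin (Eng) as a co-receptor on endothelial cells. The inhibitory SMADs feed back on both branches, and the ID genes, whose proteins block basic helix-loop-helix transcription factors, are classical BMP targets. In endothelium the pathway is known for roles in vessel assembly, quiescence and endothelial to mesenchymal transition.

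Start-site sequences of a target gene and of a feedback inhibitor are shown because the target had the smallest p of the members and the inhibitor, which did not pass the test, holds a motif found in few promoters. They are from RefSeq on GRCm38.p6, an older build than the GRCm39 named for these libraries, and run 5′ to 3′ from 250 bases before to 30 bases after the annotated start. Id3 lies on the plus strand at chr4:136143572-136143851 and Smad6 on the minus strand at chr9:64022030-64022309. Capitals mark letters known from SMAD binding sites.
Id3: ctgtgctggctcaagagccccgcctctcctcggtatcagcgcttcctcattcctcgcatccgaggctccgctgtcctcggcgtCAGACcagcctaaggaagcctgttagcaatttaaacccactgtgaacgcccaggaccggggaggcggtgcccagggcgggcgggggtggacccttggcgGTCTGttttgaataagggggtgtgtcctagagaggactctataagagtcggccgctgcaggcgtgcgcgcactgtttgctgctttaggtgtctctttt
Smad6: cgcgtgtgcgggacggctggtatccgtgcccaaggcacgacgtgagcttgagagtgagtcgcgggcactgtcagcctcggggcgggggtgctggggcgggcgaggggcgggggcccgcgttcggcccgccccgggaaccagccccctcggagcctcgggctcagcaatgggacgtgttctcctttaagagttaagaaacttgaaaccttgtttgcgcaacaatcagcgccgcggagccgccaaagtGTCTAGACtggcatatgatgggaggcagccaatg
Both strands of the 300-base windows were searched for the SMAD box CAGAC, the GC-rich SMAD motif GGCGCC and the palindrome GTCTAGAC, none of which contains another. Id3 holds CAGAC at 2 places, whose first bases lie 167 and 68 bases before the start. Smad6 holds GTCTAGAC across its start, from 4 bases before it. Of 32851 such windows, 49.6% hold the SMAD box, 11.9% the GC-rich motif and 0.213% the palindrome. RefSeq promoter entries matched 7 of the 10 members (not Tgfb3, Smad7 and Id1), and 5 of their 8 windows (Tgfbr1 has 2) held the SMAD box, 1 (Tgfbr1) the GC-rich motif and 1 (Smad6) the palindrome.

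The libraries held 17263359 to 18381419 counts over the listed genes. Control replicate 2 stood apart: its chi-square per gene was 25.7 to 32.4 against every other library, while no pair of the other 5 libraries exceeded 6.16. It also had lower counts of long genes (at least 4870 bases) relative to short genes (up to 2645 bases). Its long-minus-short difference was -0.33 (log2), against 0.05 to 0.09 in the other 5 libraries. Values without control replicate 2 are given beside the results whose call, direction or size depends on it.

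Defining endothelial markers were low. Of 10 lymphatic markers 7 are listed, summing to 499 to 531 CPM (counts scaled by each library's total) in RBC and 375 to 471 CPM in control libraries, and Prox1 and Lyve1 are among the 3 without a value here. Most of the sum was Nrp2, with 361 ± 16.1 CPM in RBC and 272 ± 52.5 CPM in control cells, and Nr2f2, with 146 ± 3.46 CPM in RBC and 161 ± 1.38 CPM in control cells (SD, n = 3 each). Neither was called with all 6 libraries (edgeR adjusted p = 0.27 and 0.37), and without control replicate 2 Nrp2 was called higher (log2 fold change 0.26) and Nr2f2 lower (-0.15). Flt4, named after its values were seen, had 191 counts in RBC and 193 in control cells (3.52 ± 0.591 and 3.62 ± 0.735 CPM; edgeR adjusted p = 0.95). Counts over 3 libraries were 2 in RBC and 6 in control cells for Pdpn, 5 in RBC and 4 in control cells for Reln, 2 in each for Sox18, and 1 in RBC and 0 in control cells for Itga9. Of 10 pan-endothelial markers 7 are listed, summing to 14.2 to 15.5 CPM in RBC and 13.7 to 17.8 CPM in control libraries. Pecam1 had 13.7 ± 0.400 CPM in RBC and 15 ± 1.88 CPM in control cells, and Flt1 had 27 counts in RBC and 31 in control cells. Cdh5, named after its values were seen, had 11 counts in RBC and 7 in control cells, Kdr had 1 in RBC and 0 in control cells, and Tek had 3 in each.

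Markers of other cells were present as well, so the cells are called by their label only. Epithelial and mesothelial markers, 8 of 10 listed, summed to 614 to 636 CPM in RBC and 658 to 738 CPM in control libraries, with Krt8 at 390 ± 6.65 CPM in RBC and 448 ± 34.3 CPM in control cells and Msln at 190 ± 3.5 CPM in RBC and 187 ± 1.96 CPM in control cells. Krt8 was called lower without control replicate 2 (log2 fold change -0.14), and Krt19, Krt5 and Wt1 had at most 2 counts in either group. Fibroblast and mural markers, 10 of 12 listed, summed to 14.6 to 15.7 CPM in RBC and 9.14 to 12.9 CPM in control libraries. Pdgfra made up most of them, with 12.4 ± 0.342 CPM in RBC and 8.23 ± 1.35 CPM in control cells (log2 fold change 0.59; edgeR adjusted p = 0.054), and was called higher without control replicate 2 (0.46). Des had 50 counts in RBC and 49 in control cells, Myh11 had 3 in RBC and 4 in control cells, and Lum had 2 in RBC and 0 in control cells.

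Blood cell markers differed between the groups for the erythroid set and for part of the leukocyte set. Erythroid markers, all 9 listed and 5 of 5 tested called higher, summed to 538 to 623 CPM in RBC and 3.24 to 3.87 CPM in control libraries, led by the globins Hbb-bs (331 ± 29.6 CPM in RBC and 1.52 ± 0.197 CPM in control cells) and Hba-a1 (138 ± 5.91 CPM in RBC and 0.693 ± 0.148 CPM in control cells). Slc4a1 and Epb42 had 2 counts each in RBC and 0 in control cells. Leukocyte markers, 10 of 12 listed and 3 of 5 tested called higher, summed to 49.9 to 55.9 CPM in RBC and 43.0 to 49.8 CPM in control libraries. Their most abundant genes were Csf1r, with 24.7 ± 1.53 CPM in RBC and 25 ± 2.72 CPM in control cells, and Cd68, with 21.2 ± 0.8 CPM in RBC and 20.6 ± 1.39 CPM in control cells. The leukocyte gene Ptprc, named after its values were seen, had 36 counts in RBC and 0 in control cells. Platelet markers, 7 of 10 listed, summed to 1.94 to 2.61 CPM in RBC and 1.51 to 2.12 CPM in control libraries. Ppbp had 62 counts in RBC and 29 in control cells, with no overlap of the libraries (2.09-fold; edgeR adjusted p = 0.32), and was called higher without control replicate 2 (3.04-fold, adjusted p = 0.005). Gp1bb had 40 counts in RBC and 44 in control cells, and Pf4, Gp1ba, Treml1 and Clec1b had at most 2 counts in either group. The part of these cells in the results on other genes was not tested.

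With red blood cells, none of the 9 tested members changed past the threshold. Id3 had the smallest p, at 0.78-fold of its control level, and Id1 the next, at 0.63-fold, while the TGF-beta receptors, endoglin and the inhibitory SMADs lay within 10% of their control level. In such bulk libraries, fewer cells of a type and less RNA per cell cannot be told apart. By edgeR's quasi-likelihood test with Benjamini-Hochberg adjustment over 11208 genes, 0 of 9 members passed an adjusted p of 0.05, against 1.46% of all tested genes (1.16% higher, 0.303% lower), and 1 member had an unadjusted p under 0.05, against 9.99%. Groups of libraries did not overlap for 2 of 9 members, against 19.8% of tested genes. The median log2 fold change of the 9 members was -0.0031, with 4 positive and 5 negative, against -0.0027 over all tested genes. Without control replicate 2 it was -0.07, against -0.00036 over all tested genes. DESeq2 and limma voom with library quality weights each called 1 member, Id3, lower. DESeq2 called 1.74% of its genes (1.30% higher, 0.437% lower) and voom 5.81% (3.23% higher, 2.58% lower). With a correction of each library for its trend with gene length, 3.04% were called (1.97% higher, 1.07% lower), Id3 among them. Without control replicate 2, Id3 and Tgfbr2 were called lower, 2 of 9 members against 7.96% of tested genes (4.19% higher, 3.77% lower).

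**Figure D1:**
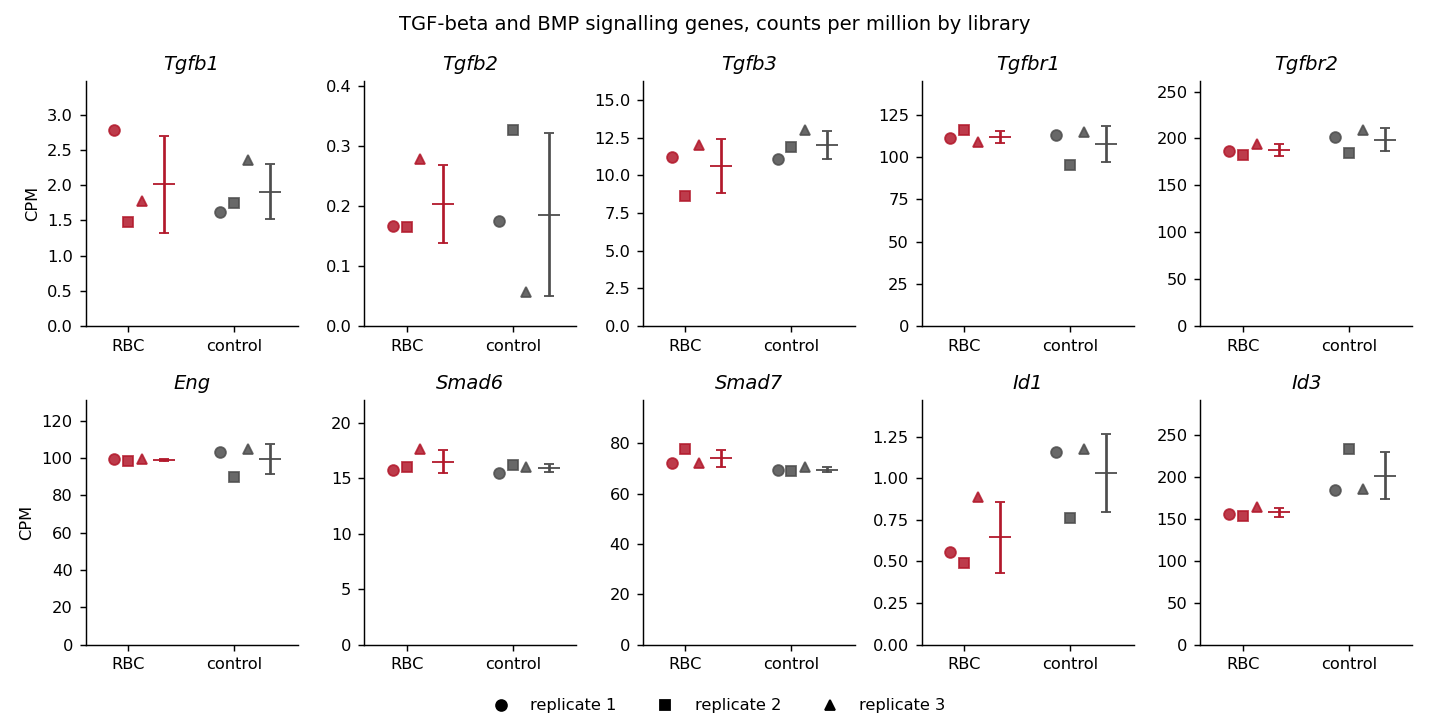
CPM of the 10 genes in each library (vertical axes from 0, each on its own scale); circles, squares and triangles are replicates 1, 2 and 3, and bars beside them give the mean and SD of 3 libraries. All RBC libraries lie below all control libraries for Id3 and above them for Smad7, and the groups overlap for the other 8 genes.

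Per gene length, Id3 and the receptors had the highest transcript levels of the 10 genes, and the TGF-beta ligands were low. In FPKM, averaged over the 6 libraries, Id3 was highest at 188 ± 31.5, above 98% of the listed genes. Tgfbr2 followed at 40.4 ± 2.16 FPKM, Eng at 28.9 ± 1.51, Tgfbr1 at 17.1 ± 1.20 and Smad7 at 16.2 ± 0.744 FPKM. The middle of the order was held by Smad6 (5.55 ± 0.259 FPKM) and Tgfb3 (3.34 ± 0.439 FPKM). At the low end were Id1 (0.898 ± 0.313 FPKM), Tgfb1 (0.891 ± 0.228 FPKM) and Tgfb2 (0.0373 ± 0.0184 FPKM; SD, n = 6 for each gene). Neighbours in this order were separated in every library except Tgfbr1 from Smad7 and Id1 from Tgfb1, whose ranges over the libraries overlapped.

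**Figure D2:**
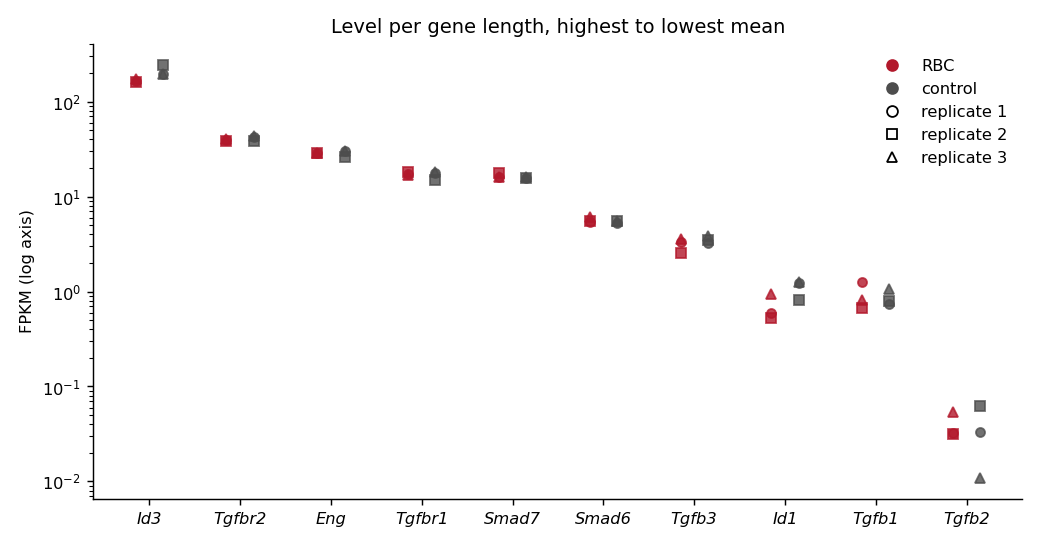
FPKM of each gene in each library (logarithmic axis), ordered by the mean over the 6 libraries; RBC libraries are left of control libraries and marker shapes are replicates. The means run from 188 FPKM for Id3 to 0.0373 FPKM for Tgfb2, with all 3 ligands in the lower part.

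Among the TGF-beta ligands, Tgfb3 was the main transcript and none differed between the groups beyond the spread of the libraries. Tgfb3 had 11.2, 8.62 and 12 CPM in RBC replicates 1 to 3 and 11.1, 11.9 and 13 CPM in control replicates 1 to 3. RBC replicate 2 was the lowest library and the groups overlapped. Its log2 fold change was -0.17 ± 0.13 (SE; 95% interval -0.47 to 0.12; edgeR adjusted p = 0.67). Ttll5, which overlaps Tgfb3 on the other strand in GENCODE M21, had a log2 fold change of 0.11 ± 0.10, and since the strand setting of the counting is not given in the sources used here, reads of the overlap cannot be assigned.

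Tgfb1, the most widely expressed isoform in most tissues and abundant in platelets, had 50, 27 and 32 counts in RBC replicates 1 to 3 and 28, 32 and 42 counts in control replicates 1 to 3. RBC replicate 1 was the highest library and the remaining 5 were mixed. The log2 fold change was 0.07 ± 0.27 (SE; edgeR adjusted p = 0.93), with a 95% interval of the fold from 0.69 to 1.6, so a difference of 1.5-fold in the positive direction lies inside what this depth allows. Without RBC replicate 1 the log2 fold change was -0.23, and without control replicate 1 it was -0.03. Of the platelet markers given above, Ppbp was higher in every RBC library than in any control library, and Gp1bb was not. The part of platelets and leukocytes in the Tgfb1 level was not tested.

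Tgfb2 was near the limit of detection and was not tested. It had 3, 3 and 5 counts in RBC replicates 1 to 3 and 3, 6 and 1 counts in control replicates 1 to 3, so the groups overlapped. The depth-scaled ratio of the sums, 11 in RBC and 10 in control cells, was 1.08 with an exact (Clopper-Pearson) 95% interval of 0.417 to 2.84, which covers counting error only.

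The signalling receptors were abundant and nearly level. Tgfbr2, the type II receptor that binds TGF-beta first, had 187, 182 and 194 CPM in RBC replicates 1 to 3 and 202, 185 and 209 CPM in control replicates 1 to 3. Control replicate 2 fell among the RBC libraries, while control replicates 1 and 3 lay above all 3 of them. Tgfbr2 had a log2 fold change of -0.08 ± 0.06 (SE; 95% interval -0.22 to 0.06; edgeR adjusted p = 0.68). Without control replicate 2, Tgfbr2 was called lower, with a log2 fold change of -0.13 ± 0.04 and an adjusted p of 0.012, a fold of 0.91.

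Tgfbr1, the type I receptor kinase, had 111, 116 and 109 CPM in RBC replicates 1 to 3 and 113, 95.3 and 115 CPM in control replicates 1 to 3. Control replicate 2 alone lay apart, below the other 5 libraries. The log2 fold change was 0.05 ± 0.08 (SE; 95% interval -0.13 to 0.23; edgeR adjusted p = 0.82), and it turned to -0.03 ± 0.04 without control replicate 2.

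Eng, the co-receptor endoglin, had 99.2, 98.2 and 99.5 CPM in RBC replicates 1 to 3 and 103, 89.9 and 105 CPM in control replicates 1 to 3. The RBC libraries lay between control replicate 2 and the other controls. The log2 fold change was -0.0031 ± 0.07 (SE; 95% interval -0.16 to 0.15; edgeR adjusted p = 0.99), and -0.07 ± 0.04 without control replicate 2. Its neighbour Fpgs, on the other strand and overlapping it in GENCODE M21, had 54.6 ± 1.01 CPM in RBC and 54.4 ± 1.5 CPM in control cells (SD, n = 3 each).

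The inhibitory SMADs had small positive fold changes that did not pass the test. Smad7, which recruits ubiquitin ligases to the active type I receptor, had 72.2, 77.9 and 72.0 CPM in RBC replicates 1 to 3 and 69.3, 68.8 and 70.5 CPM in control replicates 1 to 3. Every RBC library was above every control library, which held in that direction for 10.7% of tested genes. Smad7 had a log2 fold change of 0.09 ± 0.06 (SE; 95% interval -0.04 to 0.22; edgeR adjusted p = 0.63). Smad6, which acts mainly on the BMP branch, had 15.8, 16.0 and 17.7 CPM in RBC replicates 1 to 3 and 15.5, 16.2 and 16.0 CPM in control replicates 1 to 3. The groups overlapped, with RBC replicate 3 highest, and the log2 fold change was 0.06 ± 0.08 (SE; 95% interval -0.12 to 0.23; edgeR adjusted p = 0.80).

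The ID genes had the most negative fold changes of the 10 genes. Id3 had 156, 153 and 164 CPM in RBC replicates 1 to 3 and 185, 234 and 186 CPM in control replicates 1 to 3. Every RBC library lay below every control library, as for 9.06% of tested genes, and control replicate 2 was far above the other controls. Id3 had a log2 fold change of -0.35 ± 0.09 (SE; 95% interval -0.56 to -0.14; edgeR adjusted p = 0.16). Without control replicate 2 it was smaller, -0.23 ± 0.04 (0.85-fold), and passed with an adjusted p of 1.5e-06, with control replicates 1 and 3 alone as controls. At 953 bases Id3 is a short gene, and control replicate 2 had more counts of short genes relative to long genes than the other libraries. With each library corrected for its trend with gene length, the log2 fold change was -0.26 ± 0.04 and the adjusted p 0.0071. DESeq2 gave -0.35 ± 0.10 with an adjusted p of 0.038, and voom with library weights -0.24 ± 0.04 with an adjusted p of 0.00072. In every fit the fold change of Id3 was negative, and 4 of the alternative fits called it. The others did not, among them the FPKM tests and each fit that left out another library (edgeR adjusted p = 0.12 to 0.61).

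Id1, the other canonical BMP target, was scarce, with 10, 9 and 16 counts in RBC replicates 1 to 3 and 20, 14 and 21 counts in control replicates 1 to 3. RBC replicate 3 and control replicate 2 crossed, and the other 4 libraries were separated by group. The log2 fold change was -0.67 ± 0.31 (SE; 95% interval -1.38 to 0.04; edgeR adjusted p = 0.53), and -0.85 ± 0.35 with an adjusted p of 0.14 without control replicate 2. Of the remaining ID genes, chosen after their values were seen, Id2 had 112 ± 1.15 CPM in RBC and 117 ± 13.4 CPM in control cells, and Id4 had 2.62 ± 0.553 CPM in RBC and 3.89 ± 1.07 CPM in control cells (SD, n = 3 each). Their log2 fold changes were -0.06 ± 0.08 for Id2 and -0.58 ± 0.24 for Id4, neither past the test (edgeR adjusted p = 0.79 and 0.46).

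**Figure D3:**
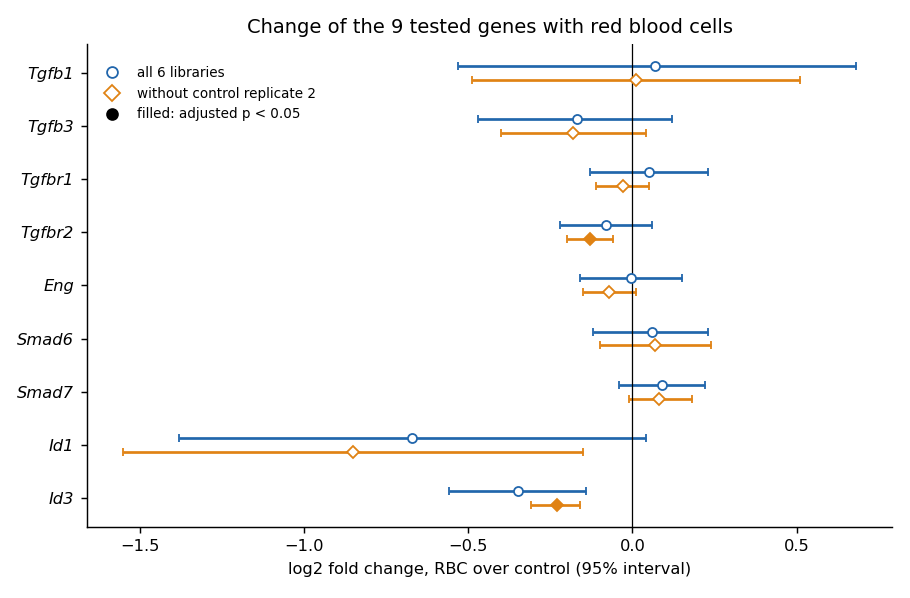
Log2 fold change of the 9 tested genes, RBC over control, with 95% intervals from edgeR's quasi-likelihood fit; blue circles use all 6 libraries, orange diamonds leave out control replicate 2, and filled symbols passed an adjusted p of 0.05. Id3 (-0.23) and Tgfbr2 (-0.13) are filled without control replicate 2 and no gene is filled with all 6 libraries.

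Among 8861 other genes of at least 10 CPM, those whose log2(CPM + 1) followed Id3 most closely over the 6 libraries were Zwint and Card19 (Pearson's r = 0.998 each), then Arf2, Plekhj1 (0.996 each) and Golga7 (0.994). This is a description over 6 libraries that share control replicate 2 as their most extreme point: Zwint had 187, 186 and 190 CPM in RBC replicates 1 to 3 and 201, 226 and 201 CPM in control replicates 1 to 3. Without control replicate 2 the r values of these 5 genes lay between 0.978 and 0.998. The genes were picked by r over all 6 libraries, so these values are no separate check. They also reflect the difference between the groups.

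Beyond the 10 genes, a pathway list of 117 others was read from the same fit, of which 90 are listed and 69 were tested. It held 2 genes that rose, Tgfbr3 and Junb, and none that fell, or 2 of 69 against 1.46% of all tested genes (19 of 69 at an unadjusted p under 0.05, against 9.99%). The median log2 fold change was 0.02 in the list, and 0.0053 without control replicate 2. Without control replicate 2, 7 rose and 7 fell of 69, against 7.96% of tested genes called. DESeq2 called 3 genes of the list higher (Junb, Tgfbr3 and Smurf1), against 1.30% of all genes to which it gave an adjusted p.

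Tgfbr3, betaglycan, a co-receptor that presents TGF-beta to Tgfbr2 and also binds inhibin, had 46.2, 43.2 and 48.1 CPM in RBC replicates 1 to 3 and 31.2, 24.4 and 30.2 CPM in control replicates 1 to 3. All RBC libraries were above all control libraries. It rose 1.61-fold (log2 fold change 0.69 ± 0.09 SE; edgeR adjusted p = 0.0080), and 1.5-fold without control replicate 2. The call was lost without RBC replicate 1 (0.68, adjusted p = 0.063) or RBC replicate 3 (0.65, adjusted p = 0.057), and in the FPKM test with no filter (adjusted p = 0.055), fits that called 0.637%, 0.7% and 0.985% of genes. Of the 10 tested genes among the other receptors it was the one called. The BMP type I receptor Bmpr1a had 161 ± 1.28 CPM in RBC and 157 ± 6.19 CPM in control cells, and the BMP and activin type I receptor Acvr1 had 48.0 ± 1.19 CPM in RBC and 48.1 ± 1.24 CPM in control cells. The activin type II receptor Acvr2a had 24.2 ± 1.61 CPM in RBC and 26.9 ± 2.09 CPM in control cells (edgeR adjusted p = 0.58), and was called lower without control replicate 2 (-0.22). Acvrl1, the endothelial type I receptor for circulating BMPs, had 22 counts in RBC and 12 in control cells over 3 libraries each and was not tested.

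Junb, an AP-1 subunit that TGF-beta induces among many other stimuli, had 46.8, 41.1 and 44.8 CPM in RBC replicates 1 to 3 and 26.3, 28.3 and 26.7 CPM in control replicates 1 to 3. The groups did not overlap. It rose 1.63-fold (log2 fold change 0.71 ± 0.07 SE; edgeR adjusted p = 0.0015), with log2 fold changes between 0.66 and 0.76 and a call in each fit that left out a library. Prdx2, a peroxiredoxin gene on the other strand that overlaps Junb in GENCODE M21, had 208 ± 2.15 CPM in RBC and 215 ± 26.0 CPM in control cells. The Junb start region from RefSeq, on the minus strand at chr8:84978719-84978998 of GRCm38.p6, is shown because it belongs to the target with the smallest p; its 300-base window had no match to the 3 motifs searched.
Junb: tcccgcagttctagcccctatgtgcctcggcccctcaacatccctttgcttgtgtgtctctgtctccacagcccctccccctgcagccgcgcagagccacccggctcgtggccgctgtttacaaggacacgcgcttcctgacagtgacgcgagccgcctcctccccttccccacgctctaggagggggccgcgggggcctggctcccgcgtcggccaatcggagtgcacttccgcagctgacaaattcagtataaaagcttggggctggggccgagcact

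Of 21 tested target genes besides the members, Junb was the one called; 8 had positive and 13 negative fold changes. Atoh8, a BMP-induced transcription factor of endothelial cells, had 18.9 ± 0.782 CPM in RBC and 23.0 ± 1.68 CPM in control cells (log2 fold change -0.28 ± 0.08; edgeR adjusted p = 0.22). Atoh8 was called lower without control replicate 2, at -0.25. The matrix gene Fn1 had 1138 ± 10.9 CPM in RBC and 1052 ± 295 CPM in control cells, and its log2 fold change of 0.11 turned to -0.10, with a call, without control replicate 2. Of the 21 target genes, 5 were called lower and 2 higher in that fit, against 3.77% and 4.19% of all tested genes.

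The other roles held no called gene with all 6 libraries. Inhba, which encodes the activin A subunit, had 50.5 ± 1.70 CPM in RBC and 40.7 ± 4.90 CPM in control cells (log2 fold change 0.32 ± 0.09; edgeR adjusted p = 0.20), and was called higher without control replicate 2 (0.22). Gdf11 had 34.6 ± 2.58 CPM in RBC and 39.3 ± 2.14 CPM in control cells, and was called lower without control replicate 2 (-0.22). Bmp4, the ligand of this list with the highest FPKM (mean 17.8, against 17.1 for Tgfbr1), had 37.3 ± 1.41 CPM in RBC and 36.1 ± 2.60 CPM in control cells. Of 29 such ligands 4 were tested. Of the signalling SMADs and the anchor Zfyve9, 6 were tested. Smad3, of the TGF-beta branch, had 44.3 ± 0.650 CPM in RBC and 39.8 ± 2.78 CPM in control cells. Smad5, of the BMP branch, had 165 ± 2.03 CPM in RBC and 154 ± 8.58 CPM in control cells. The common partner Smad4 had 102 ± 3.06 CPM in RBC and 105 ± 2.31 CPM in control cells.

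The genes listed under latency and activation had a median log2 fold change of 0.14 over 9 tested, 6 positive and 3 negative. Without control replicate 2 the median was 0.08. Thbs1, thrombospondin 1, an activator of latent TGF-beta, had 1141 ± 30.9 CPM in RBC and 982 ± 146 CPM in control cells, and Ltbp1, which tethers the latent complex to matrix, had 313 ± 2.23 CPM in RBC and 284 ± 20.3 CPM in control cells (edgeR adjusted p = 0.52 and 0.50). Their log2 fold changes of 0.22 and 0.14 were 0.10 and 0.08 without control replicate 2, where Thbs1 was called. Fbn1, fibrillin 1, had 9.19 ± 0.839 CPM in RBC and 6.82 ± 1.34 CPM in control cells, and Ltbp2 had 38 counts in RBC and 17 in control cells (log2 fold change 1.12 ± 0.37; edgeR adjusted p = 0.31). Among 7 tested extracellular antagonists, the secreted BMP modulator Twsg1 had 140 ± 1.85 CPM in RBC and 134 ± 5.26 CPM in control cells. Bmper, which binds BMPs and is known from endothelial cells, had 4.03 ± 0.321 CPM in RBC and 2.94 ± 0.510 CPM in control cells. The antagonist Dand5 had 3.07 ± 0.467 CPM in RBC and 3.04 ± 0.478 CPM in control cells, and Fstl1 had 49 counts in RBC and 25 in control cells (log2 fold change 0.94 ± 0.38; edgeR adjusted p = 0.45; 0.59 without control replicate 2). Among 12 intracellular inhibitors, the ubiquitin ligase Smurf1, a partner of Smad7, had 238 ± 3.18 CPM in RBC and 188 ± 22.9 CPM in control cells (log2 fold change 0.34 ± 0.08; edgeR adjusted p = 0.13), and was called higher without control replicate 2 (0.24). Skil, a SMAD co-repressor, had 73.3 ± 1.38 CPM in RBC and 67.5 ± 2.74 CPM in control cells, and Fkbp1a, which holds the type I receptor inactive, had 563 ± 12.6 CPM in RBC and 579 ± 58.0 CPM in control cells (SD, n = 3 each throughout).

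**Figure D4:**
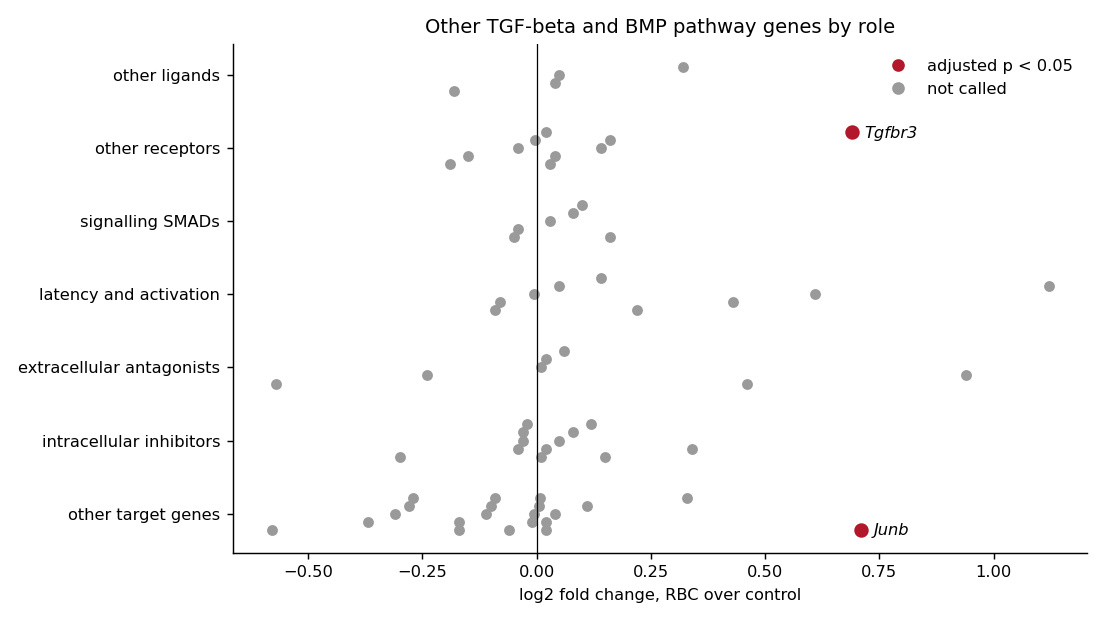
Log2 fold change, RBC over control, of the 69 tested pathway genes outside the 10 members, by role; each point is a gene, and red points passed an adjusted p of 0.05 in edgeR's fit of all 6 libraries. The red points are Tgfbr3 at 0.69 and Junb at 0.71, and the grey points span -0.58 to 1.12.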

How the data were processed

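RNA of 3 RBC and 3 control libraries was analysed, grouped by sample title. Per the labels' protocols, a stranded kit with poly(A) selection was used; per the submitters' processing notes the build was GRCm39. The sources used here name no aligner, counter, annotation or strand setting: each is not given. The authors deposited raw counts for 15528 gene symbols and FPKM values of the same reads. Gene lengths computed from the deposited tables agreed between libraries (largest relative departure 3.4e-08 over 10523 genes). Counts were filtered with filterByExpr (minimum count 10, total 15; 11208 genes, 99.96% of counts), scaled by TMM and tested with edgeR 4.0.16 (glmQLFit, glmQLFTest, two-sided, R 4.3.3), called at a Benjamini-Hochberg adjusted p under 0.05. The pipeline was tested on simulated data. Intervals of fold changes use the fit's standard error.

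The members and gene lists were chosen with earlier results of these data known. All members were named; of each pathway list, called genes, the 2 smallest p-values and the 2 highest FPKM; of each marker list, the 2 highest mean CPM and the listed markers with under 10 counts; and for the member with the smallest p, the 5 genes most correlated with it. A pathway gene and a marker that this rule names are not reported here. Alternatives were RLE scaling, DESeq2 1.42.0, limma 3.58.1 (voom with library weights; trend on log2(FPKM + 1) or log2(FPKM + 0.1), mean of at least 1 FPKM or no filter), other count filters, a replicate block, a length offset and leaving out each library. No coordinates are given beyond RefSeq's own. Depth was 17263359 to 18381419 counts.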

Additional observations from a re-analysis of the deposited data

How the results depend on the processing

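The number of genes called over the whole table, 164, was 651 with library weights in voom and 341 with the gene length correction (221 higher, 120 lower), and lay between 62 and 899 with a library left out (lowest without RBC replicate 2, highest without control replicate 2; 72 and 79 without RBC replicates 1 and 3). The members called, 0, were 1 in DESeq2, 1 in voom and 1 with the length correction (Id3 each time), and 0 to 2 with a library left out (2 without control replicate 2). The pathway genes called, 2 of 69 tested, were 10 in voom, 5 with the length correction and 1 in the FPKM test with no filter. They were 1 to 14 with a library left out (14 without control replicate 2). Of all genes, 1.46% were called in edgeR with all 6 libraries, 1.74% in DESeq2, 5.81% in voom and 3.04% with the length correction. In the FPKM test with no filter 0.985% were called, and without control replicate 2 7.96%. The share of calls that were lower was larger without control replicate 2 (426 of 899) than with all libraries (34 of 164). Signs turned for Tgfb1 (-0.06 in voom, -0.23 to 0.26 with a library left out), Tgfbr1 (-0.03 in voom, -0.03 to 0.10 with a library left out) and Eng (0.00073 with the length correction, -0.07 to 0.04 with a library left out), all uncalled in every setting; the cause was not tested. The other 6 tested members kept their sign in every setting that tested them. The order of levels was the same with TMM-scaled counts per length. Deviations of same-numbered libraries from their group means correlated at -0.0141, 0.0448 and 0.063, which shows no clear pairing by replicate number. It cannot exclude one, because control replicate 2 weighs on the mean of the control group. With the replicate number as a block, 126 genes, 0 members and 2 pathway genes were called, and only RBC replicate 2 and control replicate 2, and replicates 3, correlated best with their own number. For Id1, Tgfb1 and Tgfb2, counts of at most 50 a library limit what can be detected.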
